A study of Mus musculus with 18 samples.

Results

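Expression of 9 genes of the major histocompatibility complex (MHC) pathways was followed across 3 mouse strains. They were 5 class I genes (H2-K1, H2-D1, H2-T23, B2m and Tap1) and 4 class II genes (Cd74, H2-Aa, H2-Ab1 and H2-Eb1). The genes were taken by name for their known role, and all 9 were found among the 53342 genes counted in each library. The cells were Thy1+ cells sorted from hearts, whose sorting label (Thy1+ HE or Thy1+HE-) is not spelled out in the labels. Thy1 is a surface marker by which fibroblasts of the heart can be sorted. RNA of these cells was sequenced in 18 libraries, 6 from each of the strains C57BL/6, C3H/HeJ and KK/HlJ. In every strain, 2 libraries came from mice with saline pumps (sham), 2 from day 14 and 2 from day 21 of isoproterenol (ISO, a beta-adrenergic agonist) delivered by pump. The sham labels carry no day. Whether the 2 libraries of a group stem from separate animals or from pools is not stated in the labels. All p-values therefore rest on the spread between libraries, which may be technical.

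MHC class I molecules stand on nearly all nucleated cells and show peptides from inside the cell to CD8+ T cells. Each has a heavy chain, coded in mice by H2-K1, H2-D1 and a family of related H2-Q, H2-T and H2-M genes, and an invariant light chain, beta-2 microglobulin, coded by B2m. Tap1 codes for a subunit of the transporter that carries peptides to newly made class I molecules. H2-T23 codes for the heavy chain of Qa-1, a non-classical class I molecule that is recognized by natural killer cell receptors. MHC class II molecules show peptides from outside the cell to CD4+ T cells and are made mainly by macrophages, dendritic cells and B cells. H2-Aa and H2-Ab1 code for the alpha and beta chains of I-A, H2-Eb1 for the beta chain of I-E, and Cd74 for the invariant chain that guides class II molecules through the cell. Interferons raise both classes in many cell types. C57BL/6 mice carry the H2 haplotype b and C3H/HeJ mice the haplotype k, so their heavy chain genes differ in sequence, and the haplotype of KK/HlJ is not given in the sources used here.

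H2-K1 and H2-D1 are close copies of each other, and reads of 50 bases were assigned between them. Their coding sequences in the mm10 genome, which derives from C57BL/6, are therefore shown first. In mm10 with the GENCODE M21 annotation, H2-K1 lies at chr17:33996017-34000347 on the minus strand and H2-D1 at chr17:35262730-35267499 on the plus strand. Over 1077 aligned coding bases, 985 were identical (91.5%) and 92 differed. The most different 50 aligned coding bases, the length of 1 read, lie in exon 3, at chr17:33999348-33999397 (minus strand) in H2-K1 and chr17:35263988-35264037 (plus strand) in H2-D1. They differ at 14 bases, shown in capitals:
H2-K1, exon 3: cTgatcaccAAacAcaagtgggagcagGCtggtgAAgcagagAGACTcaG
H2-D1, exon 3: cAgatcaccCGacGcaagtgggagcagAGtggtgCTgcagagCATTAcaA
The longest stretch without a difference is 91 bases of exon 4, at chr17:33997343-33997433 (minus strand) in H2-K1 and chr17:35265911-35266001 (plus strand) in H2-D1:
H2-K1 and H2-D1, exon 4: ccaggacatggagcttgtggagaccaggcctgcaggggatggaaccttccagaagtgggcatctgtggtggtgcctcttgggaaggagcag
By these mm10 sequences, a read from within the stretch in exon 4 cannot be told apart between both genes, whereas 1 from the stretch in exon 3 can. Whether this holds for reads of C3H/HeJ and KK/HlJ was not tested. Of 975 aligned windows of 50 coding bases, 107 held no difference, and the median window held 4.

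Over whole exons, 12.8% of the 50-base windows of H2-D1 recurred exactly in another gene, most often in H2-Q1 (5.87%) and H2-K1 (5.44%). The share was 9.63% for H2-K1 and 14.5% for H2-T23, 3.33% for Tap1 and 0% for B2m. Windows were compared on either strand, and genes that overlap at the same place were not left out. Psmb9, which overlaps Tap1 on the other strand, held 2.88% of the Tap1 windows. Counts of the class I heavy chain genes are uncertain to the extent that reads from copies were split or dropped. How multi-mapped reads were counted is not given in the sources used here. Allele sequences of C3H/HeJ and KK/HlJ were not used here, so the part of allele sequence in any strain difference below was not tested.

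H2-K1 and H2-D1 also share the core of enhancer A, an upstream element of class I genes bound by NF-kappaB family factors. RefSeq sequence (GRCm38.p6) holds the letters GGGATTCCC, in capitals, within these 30 bases:
H2-K1, chr17:34000438-34000467 (minus strand): cccagggctgGGGATTCCCcatctccacag
H2-D1, chr17:35262914-35262943 (plus strand): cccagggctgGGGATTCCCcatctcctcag
The core begins 110 bases before the RefSeq start of H2-K1 and 170 bases before that of H2-D1, and the flanks differ by 1 base. For H2-K1, the farthest upstream of 2 RefSeq starts was used. The H2-D1 site lies within the GENCODE M21 span of H2-D1, which begins at chr17:35262730, so it is upstream by the RefSeq start only. On either strand, these letters occurred in the 250 bases upstream of 0.301% of 32851 RefSeq promoters. Upstream sequence of 7 of the 9 genes was searched, and that of Cd74 and H2-Ab1 was not used here. Neither the match nor its absence shows whether a factor was bound in these cells.

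The cells carried the RNA of fibroblasts in every library. The summed level of 10 fibroblast markers was 71420 to 131346 CPM (counts scaled to the library's size with edgeR's TMM factors), and no marker of that list was at 0 in any library. Library totals ran from 7230741 to 26280685 counts. Correlated with each other library in turn, the lowest medians were those of C3H/HeJ sham replicate 1 and for replicate 1 of the 3 KK/HlJ groups, with r of 0.811 to 0.847, against 0.862 to 0.912 in the other 14, and results were also taken without these 4 libraries.

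All 5 class I genes were detected in all 18 libraries. Per length, B2m was highest, with a median over the libraries of 1376 RPKM (CPM per kilobase of exon). H2-D1 (172 RPKM) and H2-K1 (171 RPKM) stood at a like level, followed by H2-T23 (9.71 RPKM) and Tap1 (8.01 RPKM). The class II genes were far below, from 3.38 RPKM for H2-Eb1 and 2.11 for Cd74 to 0.758 for H2-Ab1 and 0.467 for H2-Aa. H2-Eb1 overlaps Gm20513 and Tap1 overlaps Psmb9 on the other strand, B2m overlaps Patl2 and H2-T23 overlaps A930015D03Rik. The strand setting of the counting is not given in the sources used here, so reads of these overlaps cannot be told apart.

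The clearest strain difference was in H2-D1, which was lower in C3H/HeJ. In C57BL/6, H2-D1 was at 351 CPM in the lowest library, 522 in the median and 742 in the highest. In C3H/HeJ the same values were 145, 175 and 230 CPM, and in KK/HlJ 420, 508 and 738 CPM. All 6 C3H/HeJ libraries lay below all 6 libraries of either other strain, whereas those of C57BL/6 and KK/HlJ overlapped. The share of all genes whose strains separate in this way was not counted, for H2-D1 or for the genes below. By edgeR's quasi-likelihood test with Benjamini-Hochberg adjustment over 15762 genes, H2-D1 was 2.95-fold lower in C3H/HeJ than in C57BL/6 (log2 fold change −1.56 ± 0.21 (SE), adjusted p = 0.000206). It was 2.92-fold higher in KK/HlJ than in C3H/HeJ (log2 1.55 ± 0.21, adjusted p = 0.000214). The difference between KK/HlJ and C57BL/6 was −0.02 ± 0.21 on the log2 scale. Since these are bulk samples, fewer cells of a type and less RNA per cell cannot be told apart.

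The H2-D1 difference had a like size in each condition. C3H/HeJ minus C57BL/6 was −1.54 ± 0.37 on the log2 scale in sham, −1.51 at day 14 and −1.63 at day 21. None of these passed alone with 2 libraries against 2 (edgeR adjusted p = 0.178, 0.334 and 0.141). KK/HlJ minus C3H/HeJ was 1.68 in sham, 1.41 at day 14 and 1.55 at day 21.

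H2-K1, the other classical heavy chain gene, did not pass between strains. It was at 394, 540 and 803 CPM (lowest, median and highest) in C57BL/6, at 335, 441 and 605 in C3H/HeJ and at 396, 571 and 723 in KK/HlJ. The ranges overlapped, and C3H/HeJ minus C57BL/6 was −0.37 ± 0.20 on the log2 scale (edgeR adjusted p = 0.695). KK/HlJ minus C3H/HeJ was 0.33 (edgeR adjusted p = 0.935). Set against each other within a library, H2-D1 had 89.0 to 102 reads per 100 H2-K1 reads in C57BL/6. In C3H/HeJ it had 38.002 to 44.2, and in KK/HlJ 71.3 to 117. The C3H/HeJ ratios (41.0 ± 2.45, SD, n = 6) thus stood apart from those of C57BL/6 (93.2 ± 4.59) and KK/HlJ (96.3 ± 17.1).

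B2m, the shared light chain, was at a like level in the strains. Its lowest, median and highest libraries were at 1037, 1240 and 1689 CPM in C57BL/6. They were at 907, 1187 and 1597 CPM in C3H/HeJ and at 1001, 1124 and 1400 CPM in KK/HlJ. All ranges overlapped. The log2 difference was −0.09 ± 0.17 for C3H/HeJ and −0.13 for KK/HlJ against C57BL/6, neither past the test.

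**Figure D1:**
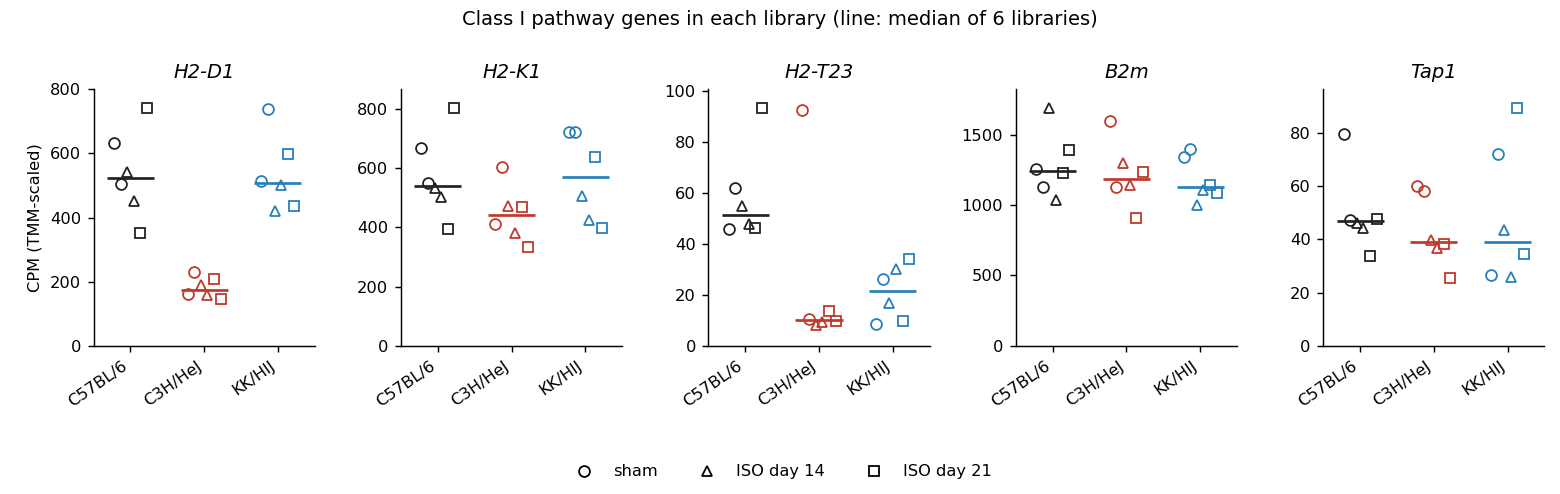
Level (CPM, TMM-scaled) of H2-D1, H2-K1, H2-T23, B2m and Tap1 in each of the 18 libraries, by strain, with symbols for sham, ISO day 14 and ISO day 21 and a line at the median of the 6 libraries. The 6 C3H/HeJ libraries lie at 145 to 230 CPM for H2-D1, below all others, while B2m and H2-K1 overlap between strains.

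H2-T23, which codes for the Qa-1 heavy chain, was highest in C57BL/6, where its 6 libraries were at 45.7 to 93.2 CPM with a median of 51.3. The 6 KK/HlJ libraries were at 8.53 to 34.1 CPM with a median of 21.4, all below every C57BL/6 library. In C3H/HeJ, 5 libraries were at 8.34 to 13.7 CPM, also below every C57BL/6 library, and sham replicate 1 was at 92.4. With all libraries, neither strain passed against C57BL/6, with a log2 difference of −1.73 ± 0.46 in C3H/HeJ (edgeR adjusted p = 0.135) and −1.48 ± 0.46 in KK/HlJ (adjusted p = 0.479). Without C3H/HeJ sham replicate 1, the C3H/HeJ difference was −2.50 and was called (edgeR adjusted p = 5.9e-07). It was also called without any 1 of the other C3H/HeJ libraries or of the C57BL/6 sham libraries (edgeR adjusted p up to 0.0142), and with all libraries by DESeq2 (adjusted p = 0.0141). The KK/HlJ difference was called without C57BL/6 sham replicate 1, either KK/HlJ day 14 library or KK/HlJ day 21 replicate 2 (edgeR adjusted p = 0.000314 to 0.0308). In its H2-D1 level (161 CPM) and H2-Q2 level (28.5 CPM), C3H/HeJ sham replicate 1 lay within the range of the other C3H/HeJ libraries. In others it did not, and these were chosen after their values were seen. H2-K2, H2-Q1 and H2-Bl were at 0 in it and at 3.85 to 12.8, 1.02 to 2.46 and 0.814 to 2.92 CPM in the 5 others. It is one of the 4 with a low correlation to the rest.

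Tap1, the peptide transporter subunit, did not pass between strains and its ranges overlapped. It was at 33.7, 46.7 and 79.7 CPM in C57BL/6, 25.4, 38.8 and 60.1 CPM in C3H/HeJ and 25.8, 39.1 and 89.3 CPM in KK/HlJ (lowest, median and highest). C3H/HeJ minus C57BL/6 was −0.23 ± 0.30 on the log2 scale and KK/HlJ minus C57BL/6 was −0.05.

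In counts over all 9 genes, 1 (H2-D1) was called between C3H/HeJ and C57BL/6, lower in C3H/HeJ. Of all genes tested in that comparison, 0.647% were called. An unadjusted p under 0.05 was found for 3 of the 9, and for 1306 of the 15762 genes tested. Between KK/HlJ and C3H/HeJ, 1 of the 9 was called (H2-D1, higher in KK/HlJ), against 0.406% of all genes. Between KK/HlJ and C57BL/6, edgeR called 0 of the 9 and 0.273% of all genes. H2-T23 alone of the 9 had an unadjusted p under 0.05 there, against 915 of the 15762 genes, and DESeq2 called 0.

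H2-D1 was not the only class I heavy chain gene with a strain difference. H2-Q2, a non-classical heavy chain gene, was at 27.6 to 37.98 CPM in the 6 C3H/HeJ libraries, at 0 to 3.17 in C57BL/6 and at 0 to 2.61 in KK/HlJ. It was the 1 gene called among 48 tested from a list of other antigen presentation genes in C3H/HeJ against C57BL/6 (edgeR adjusted p = 0.00543), and was not called without C57BL/6 day 14 replicate 2 (adjusted p = 0.053). H2-Q10, best known as a secreted class I molecule of the liver, was at 4.60 to 17.4 CPM in C3H/HeJ, 0 to 1.44 in C57BL/6 and 0 to 1.20 in KK/HlJ. It was the 1 gene of the list called between KK/HlJ and C3H/HeJ, lower in KK/HlJ (edgeR adjusted p = 0.0407). It was not called with the replicate number as a block (adjusted p = 0.0739) or with sham libraries only (0.445). For both genes the groups did not overlap, so that C3H/HeJ was high and the 12 other libraries were near 0. The share of all genes without such overlap was not counted. Of H2-Q2 windows of 50 bases, 16.1% recurred in another gene, and of H2-Q10 windows 19.1%. DESeq2 called 4 of the 48 in C3H/HeJ against C57BL/6 (H2-Q2, H2-Q10, H2-T24 and Socs1). In KK/HlJ against C3H/HeJ it called 4 (H2-Q2, H2-Q6, H2-Q7 and H2-Q10). The share of all genes that DESeq2 called is not given here, for these or any other comparison. Its calls therefore cannot be set against a rate over all genes. Between KK/HlJ and C57BL/6, edgeR called 0 of the 48 and DESeq2 called 0. An unadjusted p under 0.05 was found there for 8 of the 48, and for 915 of all genes. An unadjusted p under 0.05 was found for 13 of the 48 in C3H/HeJ against C57BL/6 and for 10 in KK/HlJ against C3H/HeJ, where 1306 and 993 of all 15762 genes had one.

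Other copies had their own patterns, and these were chosen after their values were seen. H2-T24 was at 6.17 to 17.5 CPM in C3H/HeJ and 0 to 2.75 in C57BL/6, with KK/HlJ between 0 and 9.61. H2-T22, whose product is a ligand of some gamma-delta T cells, was at 50.3 to 87.5 CPM in C57BL/6, 49.8 to 112 in C3H/HeJ and 0.149 to 45.0 in KK/HlJ. Every KK/HlJ library was thus below every other one for H2-T22, of whose windows 53.5% recurred in another gene. H2-T10, which holds 31.2% of the H2-T22 windows, was higher in KK/HlJ, with a median of 14.9 CPM against 1.82 in C57BL/6 and 2.14 in C3H/HeJ. In the KK/HlJ sham libraries, H2-T22 was at 8.01 and 16.8 CPM and H2-T10 at 28.9 and 30.2. At day 14, H2-T22 was at 45.0 and 40.0 CPM and H2-T10 at 0 and 12.5, and at day 21 they were at 0.149 and 27.9 CPM and at 17.2 and 6.82 CPM.

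**Figure D2:**
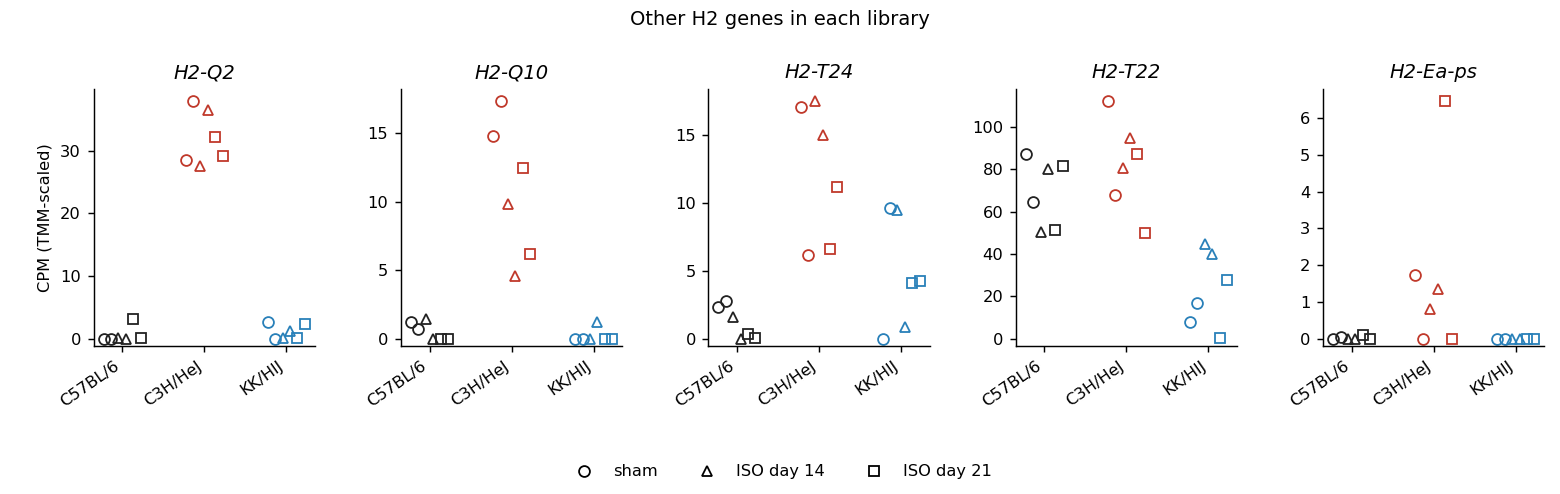
Level (CPM, TMM-scaled) of H2-Q2, H2-Q10, H2-T24, H2-T22 and H2-Ea-ps in each of the 18 libraries, by strain, with symbols for the conditions. H2-Q2 is at 27.6 to 37.98 CPM in C3H/HeJ and at most 3.17 elsewhere, and H2-T22 is lowest in KK/HlJ, at 45.0 CPM or less.

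Summed over 18 H2 class I heavy chain genes, C57BL/6 had 1309 ± 311 CPM, C3H/HeJ 872 ± 144 and KK/HlJ 1230 ± 264 (SD, n = 6). The C3H/HeJ sum was 0.667 of that of C57BL/6, with a range of 0.626 to 0.718 over other scalings and sets of libraries. KK/HlJ stood at 0.940 of C57BL/6 and at 1.41 of C3H/HeJ. H2-D1 held 20.9% of the sum in C3H/HeJ, against 40.9% in C57BL/6 and 43.5% in KK/HlJ. The 16 genes other than H2-K1 and H2-D1 added 244 ± 54.9 CPM in C3H/HeJ, against 198 ± 37.2 in C57BL/6 and 128 ± 43.4 in KK/HlJ. In C3H/HeJ the other copies were thus higher by less CPM than H2-D1 was lower, and reads placed outside these 18 genes were not traced.

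**Figure D3:**
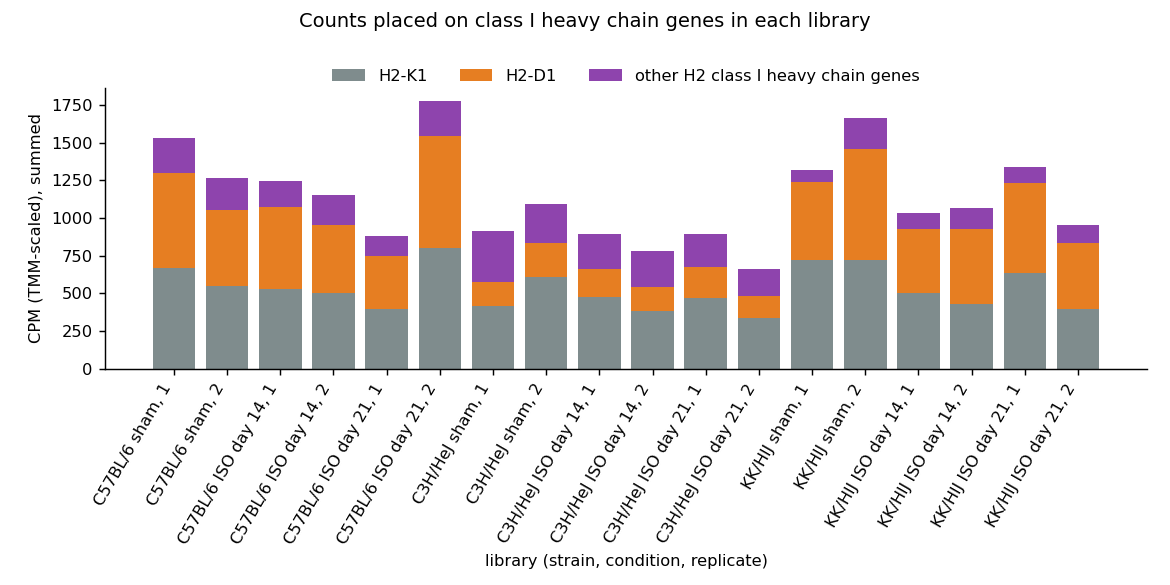
Stacked CPM (TMM-scaled) of H2-K1, H2-D1 and the 16 other H2 class I heavy chain genes in each of the 18 libraries. The H2-D1 segment makes up 20.9% of the sum in C3H/HeJ on average, against 40.9% in C57BL/6 and 43.5% in KK/HlJ.

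Between H2-K1 and H2-T23 on chromosome 17 (33996017 to 36032855), 104 genes were tested. Of these, 4 (3.85%) were called in C3H/HeJ against C57BL/6, where 0.647% of all genes were. They were H2-D1, H2-Q2, C4b and Tnxa, of which the last 2 were chosen after their values were seen. C4b codes for complement component 4. In KK/HlJ against C3H/HeJ, H2-D1, H2-Q10, C4b and Tnxa were called in the same stretch, and in KK/HlJ against C57BL/6 edgeR called 0.

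With all libraries, the main edgeR fit called no class I gene for ISO, over all strains or within a strain. DESeq2 called H2-T23 in C3H/HeJ, as given below. Without the 4 libraries that stand apart, Tap1 was called lower with ISO over all strains (log2 −0.86). In those 4, Tap1 was at 60.1 CPM in C3H/HeJ sham and at 26.6 (sham), 43.5 (day 14) and 89.3 CPM (day 21) in KK/HlJ. Leaving them out thus takes away the lowest sham and the highest ISO library of Tap1. It also leaves 1 library in each of these groups. In the mean over strains and days, the log2 difference of ISO from sham was −0.33 ± 0.17 for H2-K1 (unadjusted p = 0.0706, edgeR adjusted p = 0.769). It was −0.47 ± 0.25 for Tap1 (adjusted p = 0.775), −0.22 ± 0.18 for H2-D1, −0.60 ± 0.38 for H2-T23 and −0.14 ± 0.15 for B2m. For H2-K1, 9 of the 12 ISO libraries lay below both sham libraries of their strain and 1 above both. For Tap1 these numbers were 8 and 1, for H2-D1 7 and 1, for B2m 6 and 2, and for H2-T23 3 and 3. Such numbers were not taken over all genes, so how common they are is not known. The median log2 difference over all genes tested was 0.03.

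Within strains, no ISO difference of H2-K1 or Tap1 passed. H2-K1 in C57BL/6 had 3 ISO libraries below both sham ones and 1 above, with a log2 difference of −0.13 ± 0.30, and in C3H/HeJ it had 2 below, with −0.30 ± 0.30. H2-K1 in KK/HlJ was at 722 and 723 CPM in sham. Its day 14 libraries were at 504 and 426 CPM and those of day 21 at 637 and 396. All 4 ISO libraries were thus below both sham ones, with a log2 difference of −0.56 ± 0.30 (edgeR adjusted p = 0.773). Tap1 in C3H/HeJ was at 60.1 and 58.1 CPM in sham. Its day 14 libraries were at 39.6 and 36.8 CPM and those of day 21 at 38.1 and 25.4. The 4 ISO libraries again lay below, with a log2 difference of −0.76, which did not pass. For Tap1, 3 of the 4 ISO libraries of C57BL/6 lay below (log2 −0.57 ± 0.44), while in KK/HlJ 1 lay below and 1 above (−0.09 ± 0.45). H2-T23 in C3H/HeJ was at 92.4 and 10.6 CPM in sham and at 8.34 to 13.7 in ISO. Its log2 difference of −2.34 (edgeR adjusted p = 0.503) was −0.06 without sham replicate 1, so it rests on that library. Without sham replicate 2 in its place it was −3.20 (edgeR adjusted p = 2.43e-05), where sham is the single library at 92.4 CPM and is assumed to vary like the other groups. It was also called without day 14 replicate 1 or either day 21 library (edgeR adjusted p = 0.0207 to 0.0484).

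Of the 9 genes, edgeR called 0 for ISO in the mean over strains and days, at day 14 and at day 21, with 0 at an unadjusted p under 0.05 and 0 by DESeq2. Of all genes, 0.0571%, 0.0381% and 0.0444% were called in these comparisons. By strain, edgeR called 0 of the 9 in C57BL/6 (0% of all genes), C3H/HeJ (0.00634%) and KK/HlJ (0%). In each strain 1 gene had an unadjusted p under 0.05, which was H2-T23 in C3H/HeJ and H2-Aa in the others. DESeq2 called H2-T23 in C3H/HeJ (adjusted p = 0.0491) and H2-Aa in KK/HlJ, where both sham libraries had 0 H2-Aa reads. For the 3 differences in ISO response between strains, edgeR called 0 of the 9 and 0% of all genes. There, 1, 1 and 2 of the 9 had an unadjusted p under 0.05 for C3H/HeJ against C57BL/6, KK/HlJ against C57BL/6 and KK/HlJ against C3H/HeJ, and DESeq2 called 0, 1 (H2-Aa) and 0. Of all 15762 genes, 562, 806 and 659 had an unadjusted p under 0.05 in these comparisons.

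**Figure D4:**
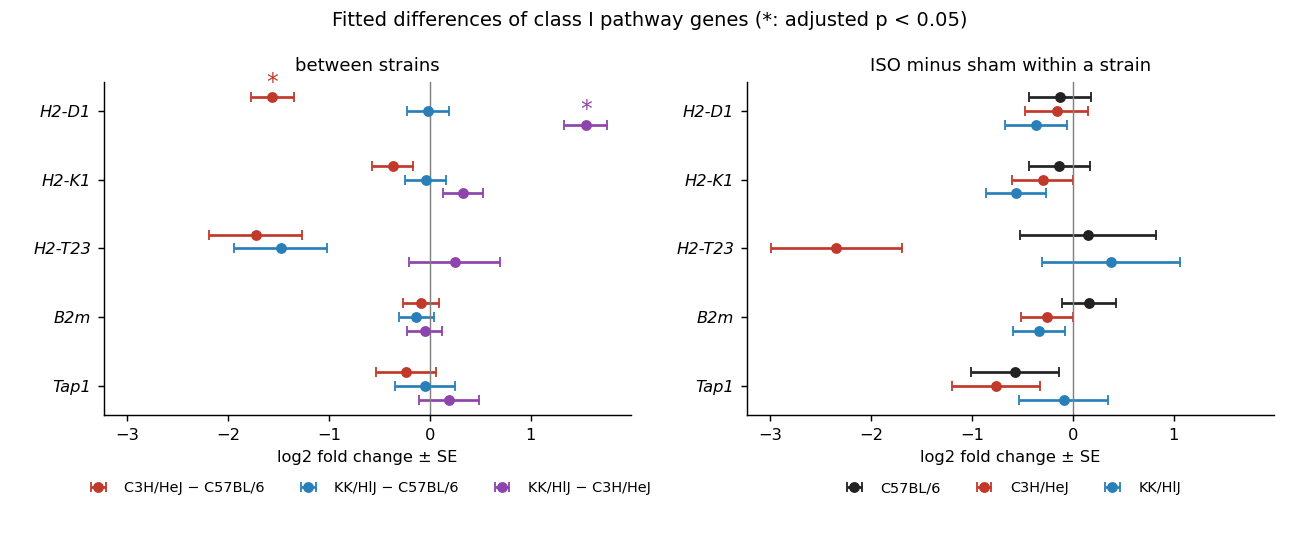
Log2 fold change ± SE (edgeR) of the 5 class I genes between strains (left) and for ISO minus sham within each strain (right), with an asterisk at adjusted p under 0.05. H2-D1 at −1.56 and 1.55 carries the only asterisks, in the 2 comparisons with C3H/HeJ.

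The transactivators of both pathways were low. Nlrc5, the transactivator of class I genes, was at 0.128 to 4.08 CPM in C57BL/6, at 0 to 0.649 in C3H/HeJ and at 0 to 2.96 in KK/HlJ. Ciita, the master transactivator of class II genes, was at no more than 0.671 CPM in any library and at 0 in 14 of 18. In a library with 0 reads, 3 counts set an upper limit, which lay between 0.115 and 0.39 CPM across libraries (counting error only). None of the 48 other antigen presentation genes was called by edgeR for ISO in the mean over strains and days. An unadjusted p under 0.05 was found for 6 of the 48 and for 1054 of all 15762 genes. The 6, chosen after their values were seen, had lower values with ISO. They were Socs1, an inhibitor of cytokine signalling (log2 −0.86 ± 0.21, edgeR adjusted p = 0.139), the interferon-induced transcription factor Irf1 (−0.49) and the immunoproteasome or proteasome activator genes Psmb8 (−0.58), Psmb10 (−0.57), Psme1 (−0.48) and Psme2 (−0.56). DESeq2 called 1 of the 48, Socs1.

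The 4 class II genes were at low levels in most libraries. Cd74, the invariant chain, was at 0.353, 1.88 and 6.50 CPM (lowest, median and highest) in C57BL/6, at 1.20, 3.82 and 52.2 in C3H/HeJ and at 1.46, 3.61 and 14.8 in KK/HlJ. H2-Eb1 was at 5.20, 7.92 and 11.1 CPM in C57BL/6, at 4.0, 5.99 and 15.6 in C3H/HeJ and at 0, 4.18 and 8.45 in KK/HlJ. H2-Eb1 was at 0 in 1 library and Cd74 in none. H2-Aa was at 0 in 5 libraries and otherwise at 0.741 to 39.8 CPM, and H2-Ab1 was at 0 in 4 and otherwise at 0.800 to 8.32. Against C57BL/6, the log2 difference of Cd74 was 1.32 ± 0.89 in C3H/HeJ and 1.15 ± 0.89 in KK/HlJ. That of H2-Eb1 was −0.07 ± 0.89 for C3H/HeJ and −0.96 ± 0.90 for KK/HlJ. No fold is given for H2-Aa and H2-Ab1, because of their zeros. EdgeR called none of the 4 genes between strains.

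I-E also needs an alpha chain, which is not expressed in mice of haplotype b. The annotation lists its gene as H2-Ea-ps. It was at no more than 0.0882 CPM in C57BL/6, where 1 read was the most in a library, and at 0 in all 6 KK/HlJ libraries. In C3H/HeJ it was at 1.73 and 0 CPM in sham. Day 14 gave 0.814 and 1.34 CPM and day 21 gave 6.47 and 0. The C3H/HeJ library with the highest H2-Ea-ps was also the one with the highest Cd74 and H2-Eb1.

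Class II RNA was highest in a pair of libraries. The sum of the 4 genes was 84.01 CPM in C3H/HeJ day 21 replicate 1 and 71.3 in KK/HlJ day 14 replicate 1, against 6.62 to 29.2 in the 16 others. The sum of 14 macrophage and monocyte markers was also highest in these libraries, at 221 and 116 CPM, with 50.8 in the next one and a median of 17.3. Of the 14 markers, 11 were detected in the first and 5 in the second. The next highest class II sum, 29.2 CPM in C3H/HeJ sham replicate 1, went with a macrophage marker sum of 9.90 CPM, which ranked 15 of 18. Of the macrophage and monocyte list, Itgam was at 0 in all 18 libraries. The endothelial marker sum of C3H/HeJ day 21 replicate 1 was 1186 CPM, with 366 in the next library. The same library had the highest sums of cardiomyocyte markers (269 CPM, next 169), dendritic cell markers (26.6 CPM, next 26.2) and B cell markers (7.75 CPM, next 2.63). Of the B cell markers, Cd22 was at 0 in all libraries. T cell markers summed to at most 5.72 CPM, with Cd3d, Cd3g and Cd8a at 0 and the highest sum in KK/HlJ day 14 replicate 1. Dendritic cell markers summed to at least 0.943 CPM, with Clec9a and Siglech at 0. The part of other cell types in the class II levels was not tested.

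**Figure D5:**
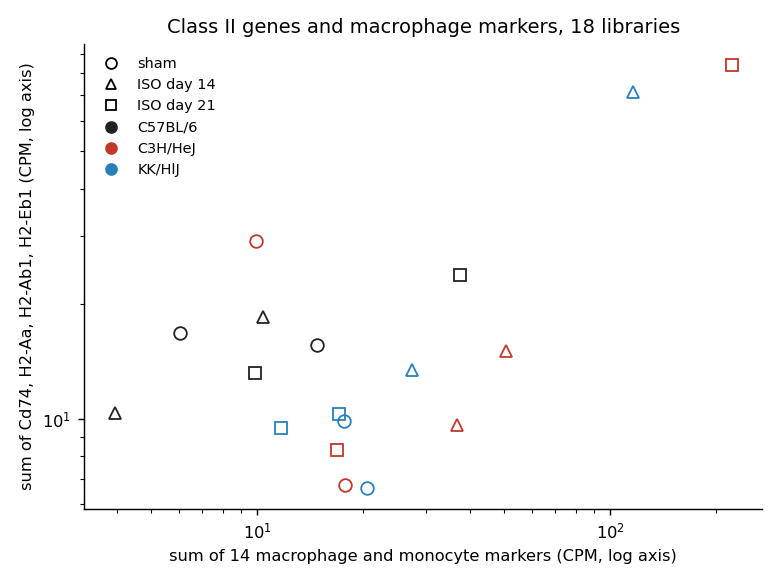
Sum of the 4 class II genes against the sum of 14 macrophage and monocyte markers (both CPM, TMM-scaled, log axes), 1 point per library, by strain. C3H/HeJ day 21 replicate 1 and KK/HlJ day 14 replicate 1 stand highest on both axes, with class II sums of 84.01 and 71.3 CPM.

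Across the 18 libraries, the genes whose log2 CPM was most like that of each class I gene were listed by Pearson's r. The libraries share strain, condition and depth differences, and these r values carry no test. Nearest to Tap1 were Irf7, an interferon-induced transcription factor (r = 0.86), Vps11 (0.78) and Oasl2, an interferon-induced gene (0.78). Irf7 was also nearest to Tap1 with strain means subtracted (r = 0.87). Nearest to H2-D1 were Rps3a1 (0.94), Dpep1 (0.93) and Rpl26 (0.92), and with strain means subtracted Supt5 (0.84), C1qbp (0.83) and Smoc2 (0.83). Nearest to H2-K1 were Acaa1a (0.84), Arl4d (0.82) and Hdgfl2 (0.81), and with strain means subtracted Irf3 (0.88), Htra3 (0.87) and Slc50a1 (0.86). B2m was most like Cfl1 (0.84), Snrpd3 (0.83) and Xaf1 (0.82), and H2-T23 most like Cdc26 (0.78), Rpl34 (0.77) and Casp12 (0.76). H2-K1 and H2-D1 correlated with each other at r = 0.71.

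The class II genes, whose counts are low, had these neighbours. Cd74 was most like Pip4p1 (r = 0.77), Dok4 (0.72) and Tango6 (0.72). H2-Aa was most like Nme4 (0.86), Purg (0.76) and Hbb-bs (0.73). H2-Ab1 was most like Mrps22 (0.74), Zw10 (0.71) and Kcng4 (0.69). H2-Eb1 was most like Ecscr, Cenpt and Lyrm1 (0.93 each), with KK/HlJ day 21 replicate 1 at 0 for H2-Eb1. Of the 20 genes most like a member, 0 to 6 lay on the member's own chromosome, with 6 for H2-Ab1 and 3 for H2-K1.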

How the data were processed

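RNA of sorted Thy1+ heart cells was sequenced in 18 libraries as single-end reads of 50 nt from libraries described as stranded, per the labels' protocols. FastQC, STAR 2.5.3a, edgeR and the genome mm10 are listed in the submitters' processing notes. The authors deposited 1 table of raw counts for each library, by Ensembl gene and without normalization. The annotation release, the counter and its handling of strand and multi-mapped reads were not given in the sources used here. Reads of all strains were mapped to a C57BL/6-based genome. Of 53342 identifiers, 53237 matched GENCODE M21, which gave symbols and coordinates. Promoter sequence came from RefSeq (GRCm38.p6).

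The main test was edgeR 4.0.16 (R 4.3.3), quasi-likelihood with robust fit, TMM scaling and default filtering, in 1 fit of 9 groups with 9 residual degrees of freedom and 15762 genes. Calls used a Benjamini-Hochberg adjusted p under 0.05. Strain differences average the 3 conditions, and ISO differences average days and strains. The SE comes from the fold change and its F statistic. The fit was tested on simulated data. DESeq2 1.42.0, RLE scaling, no filter, sham libraries only, only the groups compared, a replicate block, leaving out libraries and, for the class I sum (chosen after seeing the data), scaling by total counts were alternatives. Likeness used log2 CPM with a prior count of 2, over genes with a mean of at least 5 CPM. Replicate numbers did not pair libraries: over 36 pairs of groups, same-numbered deviations correlated at −0.144 to 0.163.

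The members and gene lists were chosen with earlier results of these data known. All 9 members, H2-Ea-ps, Ciita and Nlrc5 are named whatever they showed, with up to 6 called genes of the antigen presentation lists per comparison and the 3 genes most like each member. Where a name falls outside this rule, the text says so.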

Additional observations from a re-analysis of the deposited data

Results flagged for a closer look

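In 6 of 27 sets of 6 libraries (9 genes in 3 strains), the highest library stood far from the others. Its gap to the next was more than 0.625 of the range, the critical value of Dixon's test for 6 values. The nominal 5% of that test assumes normal values from a single group. These sets mix 3 conditions, hold zeros for some genes and share libraries, so the 6 cannot be set against that rate. H2-T23 was at 93.2 CPM in C57BL/6 ISO day 21 replicate 2, with 61.8 in the next C57BL/6 library, and at 92.4 CPM in C3H/HeJ sham replicate 1, with 13.7 in the next C3H/HeJ library. Tap1 was at 79.7 CPM in C57BL/6 sham replicate 1, with 47.7 in the next. Cd74 was at 52.2 CPM in C3H/HeJ ISO day 21 replicate 1, with 4.15 in the next, and this library also had the highest macrophage and endothelial marker sums. H2-Aa was at 39.8 CPM and H2-Ab1 at 8.32 CPM in KK/HlJ ISO day 14 replicate 1, with 3.56 and 2.40 in the next KK/HlJ libraries, and this library had the macrophage marker sum next to the highest.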

How the results depend on the processing

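The H2-D1 difference between C3H/HeJ and C57BL/6 was called in 18 of 19 alternatives, at −1.71 to −1.35 on the log2 scale, and that between KK/HlJ and C3H/HeJ in 18 of 19, at 1.45 to 1.68. Both were lost with sham libraries only (edgeR adjusted p = 0.178 and 0.069). The ratios of the class I sums kept their direction except KK/HlJ over C57BL/6, at 0.873 to 1.07. Of the 9 genes, those called in C3H/HeJ against C57BL/6 (1) were 2 by DESeq2, 2 without the filter on low counts, 2 without the 4 libraries that stand apart, 0 with sham only and 1 to 2 leaving out 1 library. In KK/HlJ against C57BL/6 (0) they were 1 without the filter (H2-T23) and 0 to 2 leaving out 1 library (H2-Eb1 and H2-T23). In KK/HlJ against C3H/HeJ (1) they were 0 with sham only and 2 without the 4 libraries. For ISO in all strains 1 gene, Tap1, was called without the 4 libraries (log2 −0.86), which leaves 1 library in C3H/HeJ sham and in each KK/HlJ group. For ISO in C3H/HeJ DESeq2 called 1, no filter 1 and leaving out 1 library 0 to 1, and in KK/HlJ DESeq2 called 1 and leaving out 1 library 0 to 1. Differences in ISO response had 0 to 1 called leaving out 1 library in each of the 3 comparisons, and DESeq2 called 1 in KK/HlJ against C57BL/6. None of the uncalled log2 differences that changed sign was called. With sham only they became 0.19 for B2m in C3H/HeJ and 0.20 for B2m, 0.25 for H2-K1 and 0.14 for H2-D1 in KK/HlJ, each against C57BL/6, and 0.0068 for B2m, −1.57 for H2-T23 and −0.26 for Tap1 in KK/HlJ against C3H/HeJ. Without the 4 libraries they became 0.0084 for H2-D1 in KK/HlJ against C57BL/6, 0.063 for B2m and −0.045 for Tap1 in KK/HlJ against C3H/HeJ, and 0.13 for H2-T23 with ISO in all strains. Leaving out 1 library gave −0.19 to 0.047 for B2m in C3H/HeJ against C57BL/6, and, in KK/HlJ against C57BL/6, −0.18 to 0.16 for H2-K1, −0.16 to 0.20 for H2-D1 and −0.34 to 0.13 for Tap1. In KK/HlJ against C3H/HeJ it gave −0.13 to 0.045 for B2m, −0.14 to 1.01 for H2-T23 and −0.11 to 0.37 for Tap1, and for ISO in all strains −0.89 to 0.16 for H2-T23. The H2-Q2 call between C3H/HeJ and C57BL/6 and the H2-Q10 call between KK/HlJ and C3H/HeJ were lost with sham only (edgeR adjusted p = 0.197 and 0.445), and the latter also with the replicate block (0.0739). The cause of these changes was not tested. With the replicate number as a block, which does not pair the libraries, H2-D1 in C3H/HeJ against C57BL/6 was −1.56 (edgeR adjusted p = 0.000382) and 1 member was called. A group left with 1 library is assumed to vary like the other groups. Depth limits H2-Aa, H2-Ab1 and Ciita, which had 0 reads in several libraries, and 2 libraries per group limit every comparison within a strain.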
